A study of Mus musculus with 25 samples.

Results

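The 10 genes described here mark endothelial cells, the cells that line blood vessels: Pecam1, Cdh5, Esam, Emcn, Plvap, Kdr, Flt1, Tek, Tie1 and Eng. They were chosen as a list of symbols, and all 10 were present in both expression tables, out of 15768 genes listed in at least one of them. RNA-seq was performed on pituitaries and pituitary tumors of shRb mice, which carry a Rosa26 rtTA allele and a doxycycline-regulated shRNA against Rb linked to GFP at the Col1a1 locus, so that doxycycline (dox) lowers Rb and its removal lets Rb return. In the long-term experiment, the group 6w+dox comprised 3 females given dox for 6 weeks, 12w+dox comprised 2 females and 2 males treated for 12 weeks, and 12w-res comprised 3 females and 2 males given it for 6 weeks and then left for 6 weeks without it. The short-term experiment held 3 male mice after 16 weeks on dox (16w +dox), and 4 female mice 1 day (1d -dox), 3 male mice 3 days (3d -dox) and 3 female mice 5 days (5d -dox) after dox was taken away. All groups share the transgenes and at least 6 weeks of dox, and no group without dox from the start was analysed here. The mice descend from a single embryonic stem cell clone with a single shRNA, and rtTA is driven from a broadly active locus, so that vessel cells can carry the knock-down as well as tumor cells.

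Endothelial cells are a small share of the pituitary, and bulk RNA mixes them with all others. The vessels of the endocrine pituitary are fenestrated capillaries, through which hormones enter the blood. Vascular endothelial growth factors (VEGF) act on these cells through the receptors encoded by Kdr and Flt1, of which Kdr carries most of the growth signal and Flt1 binds ligand with little signal of its own. Angiopoietins act through Tek, with Tie1 as its partner, and endoglin (Eng) is a co-receptor for ligands of the TGF-beta and BMP family. Pecam1, Cdh5 and Esam encode adhesion molecules of the contacts between endothelial cells, Emcn encodes a sialomucin of capillaries and veins, and Plvap encodes the protein of the diaphragms that close fenestrae. Pecam1 is also found on platelets and leukocytes. In bulk samples fewer endothelial cells and less RNA per endothelial cell cannot be told apart.

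Many endothelial genes are known targets of ETS family factors, whose core motif holds the letters GGAAG. The RefSeq promoter table of GRCm38.p6 held 6 of the 10 genes (Kdr, Emcn, Tek, Flt1, Tie1 and Eng), and the 250 bases before each listed start were searched for GGAAG on both strands. It was found 6 times at Tie1, 3 times at Flt1, 2 times each at Eng and Emcn, 1 time at Kdr and 0 times at Tek, and 64.1% of the 32851 promoters of the table held it. The windows of Flt1 and Kdr lay wholly within the annotated gene, and that of Tek had 47 bases outside it. The letters ACAAAG, bound by SOX factors, were in 2 of the 6 windows and in 16.5% of all, and the letters AGATAA, bound by the zinc-finger factors named for their core, were in 0 of the 6 and in 9.99% of all. These matches describe letters and do not show binding. The stretches of Tie1 (chr4:118489850-118490099, minus strand), Eng (chr2:32646345-32646594, plus strand) and Emcn (chr3:137340828-137341061, plus strand) that lie before the first annotated base of the gene are shown because these genes fell together after 12 weeks on dox, as described below, while their stretches differ in the number of matches and in base composition. Tek fell as well, with 0 matches, and Flt1, with 3 matches, did not pass the test for a fall. A link between matches and change was not tested. Over the 250 bases, G and C made up 60.4% at Tie1, 62.4% at Eng and 40.8% at Emcn. Capitals mark GGAAG, or CTTCC where the motif is on the other strand.
Tie1: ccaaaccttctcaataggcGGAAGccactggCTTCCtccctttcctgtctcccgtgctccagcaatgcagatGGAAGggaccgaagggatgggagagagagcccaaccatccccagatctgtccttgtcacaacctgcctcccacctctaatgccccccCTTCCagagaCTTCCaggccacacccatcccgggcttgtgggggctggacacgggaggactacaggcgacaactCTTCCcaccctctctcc
Eng: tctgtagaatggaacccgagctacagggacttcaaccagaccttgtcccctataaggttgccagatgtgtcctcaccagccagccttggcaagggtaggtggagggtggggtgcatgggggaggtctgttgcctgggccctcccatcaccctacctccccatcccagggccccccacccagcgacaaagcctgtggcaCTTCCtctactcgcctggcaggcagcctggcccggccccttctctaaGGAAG
Emcn: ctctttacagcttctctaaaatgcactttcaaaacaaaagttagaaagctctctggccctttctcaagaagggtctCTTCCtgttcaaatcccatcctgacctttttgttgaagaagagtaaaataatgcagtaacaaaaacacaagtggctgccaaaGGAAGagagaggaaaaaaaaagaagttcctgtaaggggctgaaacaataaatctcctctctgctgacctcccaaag

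Levels are given in FPM, reads per gene scaled by the library's size factor. The long-term libraries held 19066053 to 28968476 reads on genes and the short-term libraries 9573101 to 13036900 reads. The 2 tables were scaled separately, and lines that name no gene took 68.8% to 75.0% of a short-term library, so levels are compared within an experiment only. Behind each value of the 10 genes stood 91 to 3269 reads in the long-term and 5 to 695 reads in the short-term experiment. The labels were checked on the targeted gene. Rb1 was at 3.16 ± 1.70 FPM (SD, n = 3) in 6w+dox, 3.21 ± 0.700 (n = 4) in 12w+dox and 18.2 ± 1.66 (n = 5) in 12w-res. In the short-term experiment Rb1 was at 4.19 ± 0.709 FPM in 16w +dox, 4.46 ± 1.07 in 1d -dox, 5.01 ± 0.911 in 3d -dox and 5.12 ± 0.239 in 5d -dox, and GFP, listed only there, went from 1247 ± 192 FPM in 16w +dox to 606 ± 199 at 1 day, 122 ± 46.0 at 3 days and 11.7 ± 3.08 at 5 days. Melanotroph markers, the cells from which these tumors arise, were present throughout, with a summed level of 4 genes led by Pomc between 95959 and 580774 FPM in the long-term mice and between 12457 and 57854 FPM in the short-term mice.

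Among the genes of cell contacts, Pecam1 was at 14.7, 17.7 and 17.8 FPM in the 3 mice of 6w+dox, at 15.5, 8.86, 6.84 and 13.7 FPM in the 4 mice of 12w+dox, and at 25.2, 27.6, 32.2, 34.4 and 29.1 FPM in the 5 mice of 12w-res. Every 12w-res mouse lay above every mouse on dox, while the 2 groups on dox overlapped. Cdh5, which encodes VE-cadherin, was at 15.2, 22.3 and 21.4 FPM in 6w+dox, at 17.4, 8.07, 7.95 and 20.2 FPM in 12w+dox, and at 33.4, 37.6, 38.2, 45.3 and 33.04 FPM in 12w-res. The order of the groups was that of Pecam1, with the same overlap on dox. Esam was at 8.68, 11.1 and 12.5 FPM in 6w+dox, at 6.80, 4.98, 4.99 and 6.26 FPM in 12w+dox, and at 16.2, 12.2, 13.2, 13.6 and 14.0 FPM in 12w-res. For this gene the groups on dox did not overlap, and the lowest 12w-res mouse lay below the highest 6w+dox mouse.

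Emcn and Plvap, the genes of the capillary surface and of fenestral diaphragms, were low in every 12w+dox mouse. Emcn was at 17.2, 20.4 and 15.6 FPM in 6w+dox, at 9.42, 5.39, 5.02 and 8.69 FPM in 12w+dox, and at 18.8, 17.8, 21.2, 21.2 and 21.7 FPM in 12w-res. The 12w-res mice overlapped the 6w+dox mice and ran up to slightly higher levels. Plvap was at 108.1, 142.8 and 135.3 FPM in 6w+dox, at 58.3, 25.3, 31.9 and 43.3 FPM in 12w+dox, and at 136.5, 82.8, 69.5, 82.9 and 73.0 FPM in 12w-res. Of the 5 rescue mice, 4 stayed below every 6w+dox mouse in Plvap, and the male mouse at 136.5 FPM did not.

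The VEGF receptors overlapped between the 2 groups on dox. Kdr was at 11.2, 14.7 and 26.9 FPM in 6w+dox, at 17.8, 8.34, 8.96 and 16.6 FPM in 12w+dox, and at 32.6, 26.2, 20.48, 21.0 and 25.1 FPM in 12w-res. A single 6w+dox mouse at 26.9 FPM reached into the range of 12w-res. Flt1 was at 7.69, 10.4 and 11.1 FPM in 6w+dox, at 7.54, 5.22, 4.47 and 9.22 FPM in 12w+dox, and at 14.6, 12.1, 14.8, 13.8 and 14.9 FPM in 12w-res. As with Pecam1 and Cdh5, all 12w-res mice were above all mice on dox.

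The angiopoietin receptors and endoglin separated 12w+dox from both other groups. Tek was at 8.03, 8.64 and 10.3 FPM in 6w+dox, at 6.04, 2.65, 3.08 and 5.53 FPM in 12w+dox, and at 15.8, 9.77, 8.92, 7.62 and 6.91 FPM in 12w-res. Tie1 was at 14.9, 16.0 and 16.9 FPM in 6w+dox, at 9.95, 5.31, 4.84 and 11.1 FPM in 12w+dox, and at 21.5, 20.9, 17.4, 17.9 and 14.3 FPM in 12w-res. In both receptors the 6w+dox mice lay within the range of the 12w-res mice. Eng was at 42.5, 41.7 and 37.6 FPM in 6w+dox, at 27.8, 16.5, 10.1 and 20.9 FPM in 12w+dox, and at 54.7, 41.1, 55.3, 55.9 and 46.8 FPM in 12w-res.

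**Figure D1:**
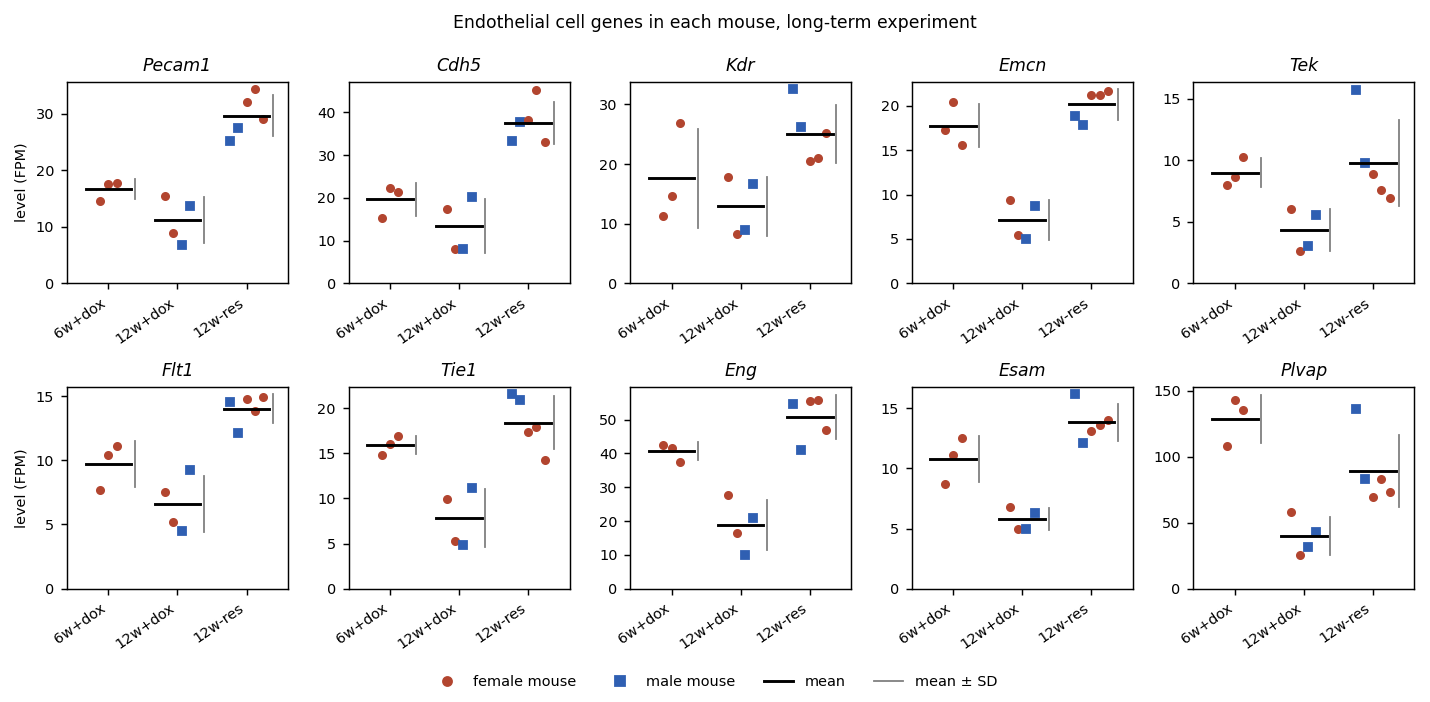
Level in FPM (y axis, from 0, its own scale for each gene) of the 10 endothelial cell genes in each mouse of the 3 long-term groups (x axis), with circles for female and squares for male mice, a black line for the mean and a grey bar for the mean ± SD. All 10 genes were higher in each of the 5 12w-res mice than in each of the 4 12w+dox mice.

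Per kilobase of the longest annotated transcript, Plvap had the highest level of the 10 genes in every group of both experiments, with 64.8 FPM per kb in 6w+dox, 19.98 in 12w+dox and 44.8 in 12w-res. Eng followed in the long-term groups with 11.9, 5.50 and 14.8 FPM per kb. The next 4 genes in 6w+dox, Esam (5.78 FPM per kb), Emcn (5.04), Cdh5 (4.92) and Pecam1 (4.86), had ranges over the mice that overlapped. Tie1 (3.76), Kdr (2.97), Tek (1.93) and Flt1 (1.41) came last, and in 12w-res Tek (2.11) and Flt1 (2.03) overlapped.

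The comparison of 12w+dox with 6w+dox asks how the endothelial genes stand as tumors grow on dox. Of the 10 genes, 6 fell (limma on log2(FPM + 0.5), adjusted p under 0.05 over all 15315 genes tested), where 12% of all genes tested did. Of these, 5 also fell by more than 1 on the log2 scale, the size the study asks of a call, against 4.04% of all genes. The mice of the 2 groups did not overlap, with 12w+dox lower, in the same 6 genes and in 12.4% of all genes. The median log2 fold change of the 10 genes was -0.94 and that of all genes tested -0.01.

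Plvap, with the largest change of the 10, fell by 1.745 on the log2 scale (SE 0.261, adjusted p = 7.84e-04 by limma), from 128.7 ± 18.3 FPM (n = 3) to 39.7 ± 14.5 (n = 4). Emcn followed with a log2 fold change of -1.30 (SE 0.205, adjusted p = 0.00104). Eng had -1.18 (adjusted p = 0.00518), and the receptors Tie1 and Tek -1.07 (adjusted p = 0.00997) and -1.04 (adjusted p = 0.0231). Esam had -0.85 (adjusted p = 0.00518). The 4 genes that did not pass were Pecam1 at -0.62 (adjusted p = 0.0656), Cdh5 at -0.63 (adjusted p = 0.122) and both VEGF receptors, Flt1 at -0.56 (adjusted p = 0.0814) and Kdr at -0.41 (adjusted p = 0.351). Tek no longer passed without 12w+dox replicate 2 (adjusted p = 0.0637), 12w+dox replicate 3 (adjusted p = 0.0542) or 6w+dox replicate 2 (adjusted p = 0.0694), and 3 genes fell by more than 1 without the first and 2 without the second of these mice. Pecam1 passed without 12w+dox replicate 1 (-0.79, adjusted p = 0.0201), and Cdh5 (-0.87, adjusted p = 0.0393) and Flt1 (-0.73, adjusted p = 0.0327) passed without 12w+dox replicate 4. Of the genes that passed in the main fit, Tek (adjusted p = 0.0708) and Esam (adjusted p = 0.0572) did not pass in a fit of females only. With read totals in place of size factors 3 of the 10 genes fell, 1 of them by more than 1. In that fit the median of all genes tested was 0.29 and that of the 10 genes -0.65.

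The 4 mice of 12w+dox differed among themselves. Averaged over the 10 genes, they stood at -0.48, -1.32, -1.40 and -0.56 on the log2 scale relative to the mean of 6w+dox, while the 6w+dox mice stood between -0.21 and 0.14. The higher and the lower pair each held 1 female and 1 male mouse, and a part of sex in this gap was not tested.

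The comparison of 12w-res with 12w+dox sets mice of equal total time side by side, with and without dox in the last 6 weeks. All 10 genes rose (adjusted p under 0.05 by limma), against 19.4% of all genes tested. Of these, 9 rose by more than 1 on the log2 scale, where 6.24% of all genes did, and Kdr stood just under that size at 0.99 (SE 0.268, adjusted p = 0.0101). In all 10 genes the 5 mice of 12w-res lay above the 4 mice of 12w+dox, which held for 17.1% of all genes. The median was 1.23, beside -0.004 for all genes tested.

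The junction gene Cdh5 rose by 1.56 (SE 0.249, adjusted p = 2.94e-04), from 13.4 ± 6.32 to 37.5 ± 4.95 FPM. Eng (1.49), Emcn (1.48) and Pecam1 (1.42) were next, with adjusted p between 3.05e-05 and 1.27e-04. The angiopoietin receptors rose by 1.26 (Tie1) and 1.11 (Tek), Esam by 1.20, Plvap by 1.18 and Flt1 by 1.08. In ratios of the group means these are 2.12 times for Flt1 to 2.83 times for Emcn, and 1.94 times for Kdr. Each of these 10 genes passed in each of the 9 fits that left out 1 mouse. In females only 7 of the 10 passed, and Kdr (0.83, adjusted p = 0.167), Tek (0.87, adjusted p = 0.0863) and Plvap (0.95, adjusted p = 0.0519) did not. With read totals 6 of the 10 rose, 0 of them by more than 1. In that fit the median of all genes tested was -0.61 and that of the 10 genes 0.60.

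The comparison of 12w-res with 6w+dox sets the mice after 6 weeks without dox against the state at which dox was taken away in their schedule. Of the 10 genes, 2 were higher, a number near the share of 17% over all genes tested. They were Cdh5 (log2 fold change 0.93, SE 0.272, adjusted p = 0.0174 by limma) and Pecam1 (0.81, SE 0.219, adjusted p = 0.0117). Esam, also a gene of cell contacts, did not pass (0.36, adjusted p = 0.118). None was lower by limma, edgeR or DESeq2, where 16.8% of all genes were, and Plvap had an unadjusted p of 0.0394 for a log2 fold change of -0.57 (adjusted p = 0.0951). Genes that passed with a change over 1 numbered 0 of 10, against 5.81% of all genes higher and 5.82% lower. The groups did not overlap in 3 genes, Pecam1, Cdh5 and Flt1, with 12w-res higher (16.9% of all genes), and in 0 genes with 12w-res lower (15.9%). The remaining fitted values lay between 0.07 for Tek and 0.57 for Kdr. With read totals in place of size factors the fitted values of Emcn, Tek, Tie1 and Eng changed sign, neither Cdh5 nor Pecam1 passed, and Plvap was lower (-0.90, adjusted p = 0.0227). In that fit the median of all genes tested was -0.33. Plvap was also lower without the single mouse at 136.5 FPM (-0.73, adjusted p = 0.0221), Cdh5 did not pass without 6w+dox replicate 1 (0.76, adjusted p = 0.0787), and Kdr passed without 6w+dox replicate 3 (0.92, adjusted p = 0.0199). Without 6w+dox replicate 2 the number of genes that rose by more than 1 was 1, Cdh5. The 3 long-term comparisons share their groups, so they are not independent of each other.

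Plvap was the only member with a fitted value below 0 in this last comparison. Set against the mean of the other 9 genes in the same mouse, Plvap stood at 2.99 ± 0.0912 on the log2 scale in 6w+dox, 2.10 ± 0.245 in 12w+dox and 1.99 ± 0.313 in 12w-res. The difference between 12w-res and 6w+dox was -1.003 (two-sided exact permutation test over mice, p = 0.0357), and that between 12w+dox and 6w+dox was -0.89 (p = 0.0571, exact permutation test), each the smallest p that these group sizes allow. Between 12w-res and 12w+dox it was -0.11 (p = 0.603, exact permutation test). Plvap was picked for this measure with its fitted values known, and these p-values are not adjusted for that.

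**Figure D2:**
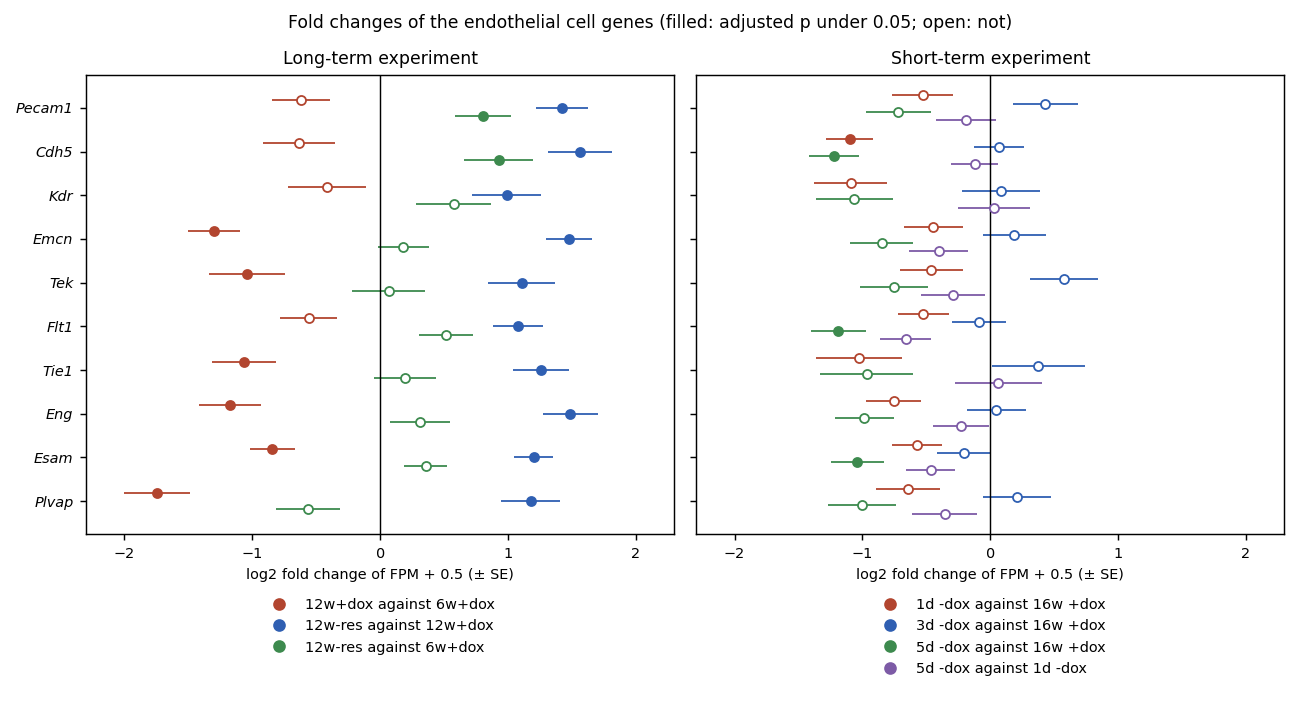
Fitted log2 fold change of FPM + 0.5 with its standard error (x axis) for each of the 10 genes (y axis), in the 3 long-term comparisons (left) and the 4 short-term comparisons (right), filled where the adjusted p was under 0.05 and open otherwise. All 10 genes were filled for 12w-res against 12w+dox, 6 were filled for 12w+dox against 6w+dox, and 2, Pecam1 and Cdh5, for 12w-res against 6w+dox.

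A further 28 genes of blood vessel endothelium were listed for comparison. Of these, 12 fell at 12w+dox against 6w+dox, led by Ramp2, a receptor partner of adrenomedullin (-1.40), and by the transcription factor genes Sox18 (-1.35) and Sox7 (-1.06). Gja5 (0.80), Gja4 (0.78), Vwf (0.40), Cd93 (0.23) and Gpihbp1 (0.04) had fitted values above 0 and did not pass by limma. DESeq2 on the recovered reads passed 2 of the 28 as higher and 12 as lower. At 12w-res against 12w+dox 25 of the 28 rose, led by Sox18 (1.79), Gja5 (1.75), Cldn5 (1.59) and Fli1 (1.51), which encode a transcription factor, a gap junction protein of arteries, a tight junction protein and an ETS factor. At 12w-res against 6w+dox 12 of the 28 were higher, among them Gja5 (2.55), Gja4 (1.78), Cd93 (1.54) and Cldn5 (1.43). Of all genes tested, 12% were lower in the first comparison, 19.4% higher in the second and 17% higher in the third. The medians of the 28 genes were -0.52, 1.07 and 0.45. With read totals the counts were 3 lower and 2 higher, 11 higher and 1 lower, and 7 higher. In those fits the median of all genes tested was 0.29, -0.61 and -0.33.

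Genes that act with the receptors of the list were taken from a list of 27, of which 25 were tested in the long-term experiment. Among ligands, Figf (VEGF-D) and Vegfc, ligands of the receptor encoded by Flt4, fell at 12w+dox against 6w+dox by 2.01 (adjusted p = 0.0176) and 1.32 (adjusted p = 0.0167) on the log2 scale, while Angpt2, the angiopoietin that endothelial cells release themselves, rose by 1.56 (adjusted p = 0.00228), from 14.7 ± 5.98 to 42.6 ± 11.6 FPM. Vegfa, the main ligand of Kdr and Flt1, had a log2 fold change of 0.80 that did not pass (adjusted p = 0.0762) and is given although its values were already known. Among receptors and co-receptors, Nrp1 (-1.12), Flt4 (-0.88), Tgfbr2 (-0.82) and Notch1 (-0.78) fell, as did Epas1 (-1.002), which encodes a hypoxia-inducible factor of endothelial cells, and Svep1 (-1.09). Dll4, a Notch ligand of growing vessel tips, rose by 0.81 (adjusted p = 0.0353). In all, 8 of the 25 fell and 2 rose, where 12% of all genes tested fell and 10.4% rose, and the median was -0.15.

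At 12w-res against 12w+dox 10 of these 25 genes rose and 1 fell, with a median of 0.54. Of all genes tested, 19.4% rose and 18.3% fell. Aplnr (1.47), Notch4 (1.45), Epas1 (1.35), Flt4 (1.28), Ptprb (1.28), Nrp1 (1.28), Notch1 (1.23), Tgfbr2 (1.15), Acvrl1 (1.12) and Svep1 (0.74) rose. Ptprb encodes a phosphatase of the Tek receptor, and Acvrl1 the receptor with which endoglin works. Vegfb fell by 0.46 (adjusted p = 0.00709). At 12w-res against 6w+dox Notch4 (1.45), Angpt2 (1.41), Aplnr (1.39), Ptprb (1.21) and Acvrl1 (0.86) were higher, and Figf (-2.16) and Vegfb (-0.76) were lower. These 5 higher and 2 lower of the 25 genes stand beside 17% higher and 16.8% lower of all genes tested, numbers near or under those shares. Angpt2 thus stood at 37.9 ± 6.28 FPM in 12w-res, above 6w+dox as in 12w+dox. With read totals the median of this list was 0.17, -0.09 and 0.07 in the 3 comparisons, and 5 rose and 3 fell, 4 rose and 7 fell, and 3 rose and 2 fell.

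These values depend on the scaling. With read totals in place of size factors the median of all genes tested moved to 0.29, -0.61 and -0.33 in the 3 long-term comparisons. Relative to that median the 10 endothelial genes kept medians of -0.94, 1.21 and 0.33. Pomc had a mean of 227757 FPM in 6w+dox, 142046 in 12w+dox and 499903 in 12w-res, and its part in this shift was not tested.

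The genes nearest to the 10 in their pattern over the 12 long-term mice were sought among 13878 genes with a mean of at least 1 FPM, by the root mean square difference between centred log2 profiles. Flt4, the lymphatic and endothelial VEGF receptor, was nearest (0.110), with means of 8.67, 4.80 and 11.5 FPM in 6w+dox, 12w+dox and 12w-res. Cnn2 (0.129), Tgfbr2 (0.139), Tspan12 (0.146) and Smo (0.155) followed. For scale, the 10 genes themselves lay 0.140 (Tie1) to 0.424 (Plvap) from their own mean, and a gene of constant level would lie at 0.617.

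Markers of other cell types moved in the same comparisons. Genes of mural cells, the pericytes and smooth muscle cells around vessels, had a summed level of 195.5 to 248.4 FPM in 6w+dox, 143.0 to 338.7 in 12w+dox and 572.9 to 685.7 in 12w-res. Of these 11 genes, 5 fell at 12w+dox against 6w+dox, 11 rose at 12w-res against 12w+dox and 8 were higher at 12w-res against 6w+dox, led by Cspg4 (2.12) in the second comparison and Rgs5 (2.09) in the third. Genes of fibroblasts summed to 80.6 to 132.7, 28.5 to 116.6 and 188.9 to 456.8 FPM, with 3 of 4 lower, 4 of 4 higher and 1 of 4 higher. Leukocyte genes summed to 29.1 to 34.3, 24.9 to 49.7 and 54.5 to 74.4 FPM, with 1, 4 and 5 of 6 higher. Genes of hormone cells other than melanotrophs, led by Gh and Prl, summed to 57259 to 92508 FPM in 6w+dox, 1173 to 12537 in 12w+dox and 16629 to 32274 in 12w-res, with 3 of 5 lower, 2 of 5 higher and 2 of 5 lower. With read totals the counts in the 3 comparisons were 2 lower and 1 higher, 10 higher and 4 higher of the 11 mural genes, and 2, 0 and 2 higher of the 6 leukocyte genes, and the fibroblast median at 12w-res against 6w+dox went from 0.004 to -0.30. In the main fit 12% of all genes tested were lower and 10.4% higher at 12w+dox against 6w+dox. The share higher was 19.4% at 12w-res against 12w+dox, and 17% were higher and 16.8% lower at 12w-res against 6w+dox. No listed gene of these cell type lists was at 0 in every mouse. The part of these cell types in the endothelial result was not tested.

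Platelet genes, which bear on Pecam1, summed to 13.04 to 13.8, 11.2 to 17.1 and 10.4 to 14.3 FPM in the 3 groups. Of the 3 tested, Gp9 (1.05) and Pf4 (0.95) rose and Itga2b fell by 0.95 at 12w-res against 12w+dox. At 12w-res against 6w+dox Gp9 (1.18) and Pf4 (0.75) were higher and Itga2b (-0.79) was lower. Of the 3 lymphatic markers tested, Prox1 had means of 23.6, 70.9 and 39.9 FPM in the 3 groups. Prox1 rose by 1.598 at 12w+dox against 6w+dox and fell by 0.81 at 12w-res against 12w+dox, both opposite to the 10 genes. At 12w-res against 6w+dox Prox1 was higher (0.79, adjusted p = 0.00892 by limma). The means of Prox1 were above those of Pecam1 (16.7, 11.2 and 29.7 FPM), and which cells held its RNA was not tested. Pdpn had means of 11.4, 7.42 and 16.5 FPM, with a log2 fold change of -0.60 that did not pass (adjusted p = 0.115) and then a rise of 1.06 (adjusted p = 0.00276), the same direction as the 10 genes. Lyve1, at 0.330, 0.407 and 0.689 FPM, did not pass in any of the 3 comparisons. Of the 4 genes of barrier vessels, Mfsd2a was at 2.14, 0.674 and 1.86 FPM and Abcb1a at 2.67, 2.61 and 5.78 FPM on average. Both rose at 12w-res against 12w+dox. Mfsd2a also fell at 12w+dox against 6w+dox (-1.18), and Abcb1a was higher at 12w-res against 6w+dox (0.98). The other 2 did not pass in any long-term comparison, Slc2a1 at 68.3, 94.1 and 72.3 FPM, highest in 12w+dox, and Slco1a4 at 0.579, 0.310 and 0.425 FPM. Of red blood cell genes Alas2, the 1 listed, did not pass in any long-term comparison.

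**Figure D3:**
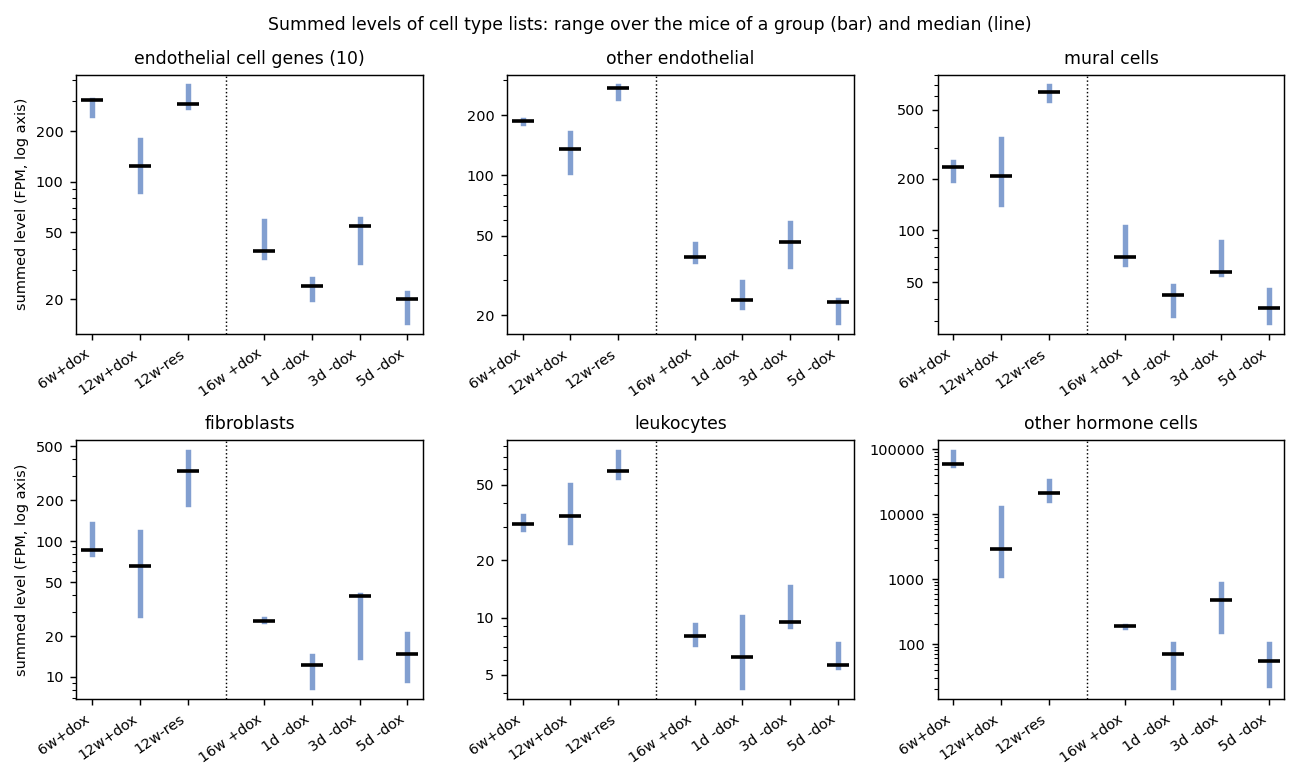
Summed level in FPM (y axis, log scale) of the 10 endothelial cell genes and of 5 lists of marker genes in the 7 groups (x axis; a dotted line parts the long-term from the short-term experiment, whose scales differ), with a bar for the range over mice and a line for the median. In the long-term groups the sum of the 10 genes was 248.2 to 305.8 FPM in 6w+dox, 88.1 to 176.6 in 12w+dox and 278.9 to 369.2 in 12w-res, and mural cell and fibroblast sums were highest in 12w-res.

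In the short-term experiment the 10 genes followed a pattern that cannot be told apart from sex. Averaged over the 10 genes relative to the mean of 16w +dox, the male mice stood between -0.20 and 0.29 in 16w +dox and between -0.27 and 0.49 in 3d -dox, and the female mice between -0.83 and -0.53 in 1d -dox and between -1.23 and -0.84 in 5d -dox. Every female mouse lay below every male mouse. The comparisons within a sex are 3d -dox against 16w +dox and 5d -dox against 1d -dox. In the long-term experiment, where sexes were mixed in 12w+dox and 12w-res only, no gene of the 10 passed for a sex term by limma. The fitted log2 difference of females to males ranged from -0.37 for Tek to 0.33 for Eng, with standard errors of 0.161 (Esam) to 0.273 (Kdr). That term was fitted in other mice with other times on dox, and the part of sex in the short-term pattern was not tested.

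**Figure D4:**
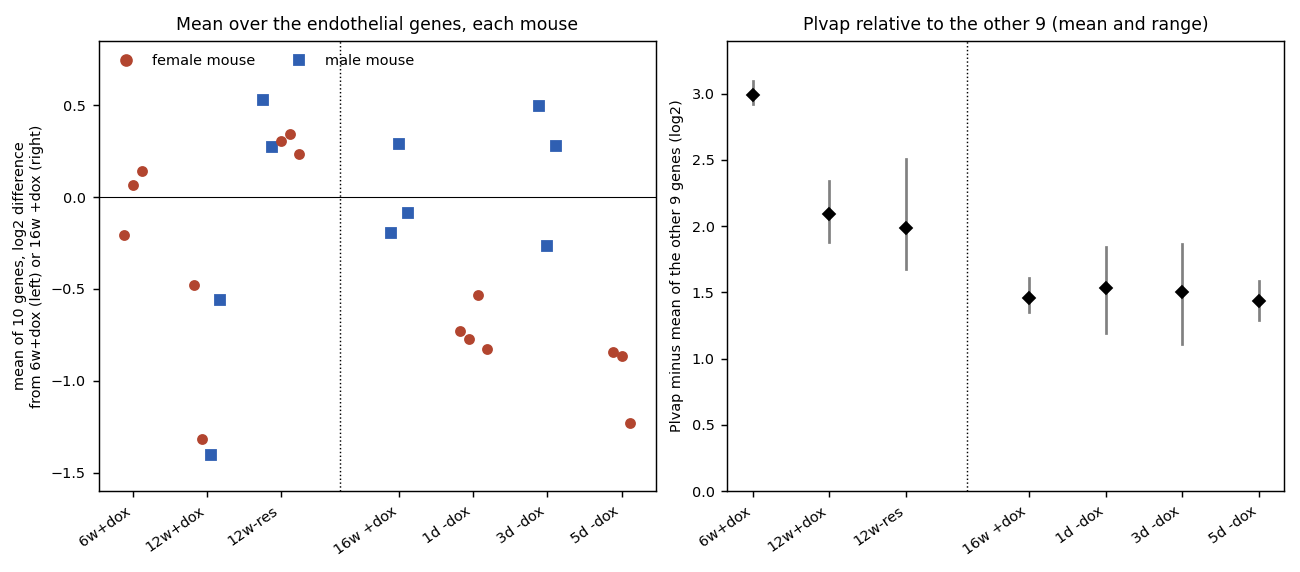
Left, the mean over the 10 genes of the log2 difference from 6w+dox (long-term groups) or 16w +dox (short-term groups) in each mouse, with circles for female and squares for male mice; right, the log2 level of Plvap minus the mean of the other 9 genes, as mean (diamond) and range over mice (grey bar). In the short-term groups the 7 female mice lay between -1.23 and -0.53 and the 6 male mice between -0.27 and 0.49.

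Cdh5 was at 5.37, 6.92 and 5.90 FPM in the 3 mice of 16w +dox, at 2.76, 2.29, 3.19 and 2.06 FPM in the 4 mice of 1d -dox, at 7.95, 5.08 and 6.32 FPM in the 3 mice of 3d -dox, and at 2.52, 2.86 and 1.66 FPM in the 3 mice of 5d -dox. The groups of 1 and 5 days lay wholly below the other two. At 1d -dox against 16w +dox Cdh5 was lower by 1.10 on the log2 scale (SE 0.184, adjusted p = 0.0420 by limma), the only 1 of the 10 genes to pass, where 0.1% of all 13958 genes tested did in either direction. The call was lost without any single mouse of the 2 groups other than 1d -dox replicate 3. The groups did not overlap, with 1d -dox lower, in 7 of the 10 genes (Pecam1, Cdh5, Kdr, Flt1, Eng, Esam and Plvap) and in 5.6% of all genes. DESeq2 on the recovered reads passed 4 of the 10 genes and edgeR 1, counts to which the limma share of all genes does not apply. The median was -0.61, beside -0.002 for all genes.

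At 5d -dox against 16w +dox 3 of the 10 genes were lower, Cdh5 by 1.22 (SE 0.196, adjusted p = 0.0135), Flt1 by 1.19 (SE 0.213, adjusted p = 0.0291) and Esam by 1.04 (SE 0.207, adjusted p = 0.0415), where 0.509% of all genes passed in either direction. Flt1 was at 5.24, 7.51 and 5.95 FPM in 16w +dox and at 3.48, 2.21 and 1.83 FPM in 5d -dox. Esam was at 1.05, 1.44 and 1.40 FPM and at 0.533, 0.493 and 0.141 FPM, the last of which rests on 5 reads. DESeq2 on the recovered reads passed 7 of the 10 genes and edgeR 2. The share of all genes given here is that of limma and not of these tools. In 9 of the 10 genes, all but Pecam1, the mice of 5d -dox lay below those of 16w +dox, as in 9.64% of all genes, and the median was -0.99. Without 16w +dox replicate 1 or 5d -dox replicate 3 no gene of the 10 passed, and without 16w +dox replicate 2, 16w +dox replicate 3 or 5d -dox replicate 2 a single gene did.

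Within males, at 3d -dox against 16w +dox, 0 of the 10 genes passed by limma, edgeR or DESeq2, where 0.358% of all genes passed by limma, and Tek alone had an unadjusted p under 0.05 (1.91 ± 0.928 against 1.04 ± 0.304 FPM). The fitted values ranged from -0.21 for Esam to 0.58 for Tek. Within females, at 5d -dox against 1d -dox, 0 of the 10 passed by any of these tools, where 0.0143% of all genes passed by limma, and Flt1 (-0.66, 2.504 ± 0.863 against 4.19 ± 0.815 FPM) and Esam (-0.47) had an unadjusted p under 0.05. With 3 or 4 mice a group, the standard errors of the 10 log2 fold changes were 0.196 to 0.362 within males and 0.184 to 0.339 within females.

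**Figure D5:**
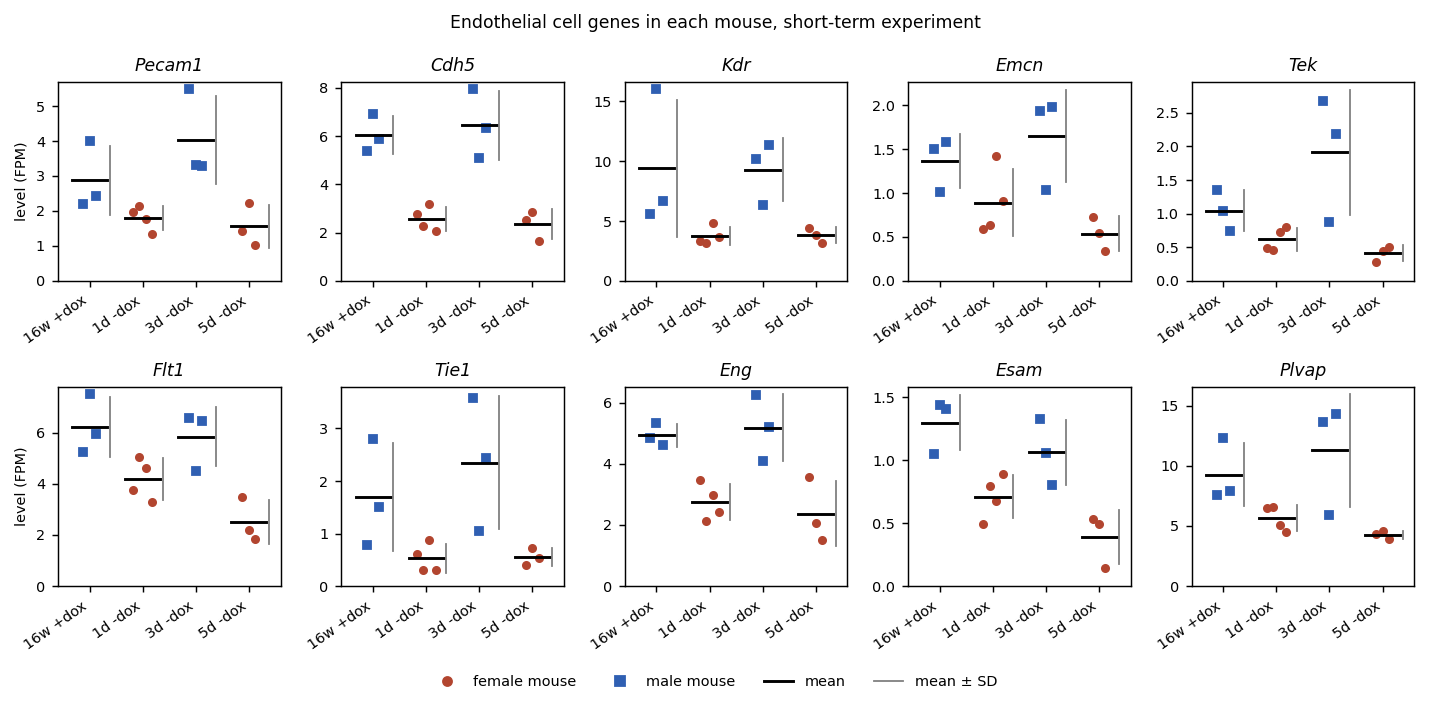
Level in FPM (y axis, from 0, its own scale for each gene) of the 10 endothelial cell genes in each mouse of the 4 short-term groups (x axis), with circles for female and squares for male mice, a black line for the mean and a grey bar for the mean ± SD. Cdh5 lay between 5.08 and 7.95 FPM in the male mice of 16w +dox and 3d -dox and between 1.66 and 3.19 FPM in the female mice of 1d -dox and 5d -dox.

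Plvap was at 9.24 ± 2.63 FPM in 16w +dox, 5.65 ± 1.05 in 1d -dox, 11.3 ± 4.68 in 3d -dox and 4.26 ± 0.331 in 5d -dox. Kdr was at 9.43 ± 5.73, 3.75 ± 0.748, 9.29 ± 2.65 and 3.83 ± 0.640 FPM, with a single 16w +dox mouse at 16.0 FPM. Eng was at 4.94 ± 0.372, 2.75 ± 0.586, 5.18 ± 1.09 and 2.37 ± 1.07 FPM. Pecam1 was between 1.01 and 5.48 FPM over the 13 mice, and Tie1 (0.304 to 3.59), Emcn (0.338 to 1.98) and Tek (0.280 to 2.67) were lower, with 10 to 165 reads a mouse. Relative to the other 9 genes, Plvap stood at 1.46 ± 0.136, 1.54 ± 0.319, 1.51 ± 0.377 and 1.43 ± 0.149 on the log2 scale in the 4 groups.

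The sum of the 28 other endothelial genes was 37.1 to 45.5 FPM in 16w +dox, 22.0 to 29.3 in 1d -dox, 35.3 to 58.0 in 3d -dox and 18.5 to 23.9 in 5d -dox, and that of mural cell genes 64.1 to 105.4, 32.2 to 47.7, 56.2 to 86.1 and 29.4 to 44.9 FPM. At 5d -dox against 16w +dox Mmrn2 (-1.33) and Adgrf5 (-1.20) of the other endothelial genes, Myh11 (-1.603), Notch3 (-1.27) and Pdgfrb (-1.07) of the mural genes and Epas1 (-0.94) of the 23 receptor pathway genes tested were lower by limma. Fibroblast sums were 25.6 to 26.9, 8.37 to 14.4, 14.1 to 40.0 and 9.51 to 20.7 FPM, and leukocyte sums 7.30 to 9.11, 4.30 to 10.1, 8.996 to 14.4 and 5.49 to 7.27 FPM. The sum of other hormone cells was 182.3 to 192.3, 21.4 to 101.2, 157.1 to 837.2 and 23.5 to 99.1 FPM, with Lhb, a gonadotroph hormone gene, lower at 1 day (-2.57), higher at 3 days (1.91) and lower at 5 days (-2.65). The part of these cell types in the endothelial result was not tested, and sex and time off dox cannot be told apart at 1 and 5 days. The genes nearest in pattern over the 13 mice, among 11557, were Loxl1 (0.105), Notch1 (0.149), Ptrf (0.161), Lats2 (0.163) and the endothelial receptor gene Adgrf5 (0.165), where a gene of constant level would lie at 0.514.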

How the data were processed

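RNA-seq values of 12 long-term and 13 short-term mice were analysed, each sample a separate mouse grouped by its GEO labels. The deposited values are a signal per gene in FPM, which the authors made by aligning reads with STAR to mm10, counting RefSeq genes and scaling with DESeq2 size factors. The counting setting and its use of strand are not given in the sources used here. Labels name poly(A) RNA for the long-term and rRNA-depleted RNA for the short-term libraries, while the study's methods describe an mRNA preparation. Dividing by the step of 1 read gave whole reads, within 0.1 read, for 100% of 183780 long-term and 182091 short-term values. Lines without a gene name, 2 in the long-term and 4 in the short-term table, were left out of scaling and tests. The short-term lines held 68.8% to 75.0% of a library, and no share is given for the long-term lines. The number of per-sample columns not used was 0.

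Genes with at least 10 reads in over 50% of the samples of a condition were kept, 15315 and 13958. limma 3.58.1 (R 4.3.3) with an intensity trend was fitted to log2(FPM + 0.5), with all groups of an experiment in one fit and Benjamini-Hochberg adjustment over all genes tested. Passing means an adjusted p under 0.05, and called genes also changed by more than 1 on the log2 scale. Shares of all genes that passed or were called are those of this limma fit, and none is given for the alternatives below. All fitted values refer to log2(FPM + 0.5), where changes of low genes come out too small. edgeR 4.0.16 (quasi-likelihood) and DESeq2 1.42.0 on the recovered reads, TMM scaling and totals of recovered reads, pseudocounts of 0.1 and 1, other filters, only the groups compared, sex as a covariate, females only, a replicate block and leaving out each mouse were alternatives. The scripts were tested on simulated data.

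The 10 genes and the gene lists (other endothelial genes, the VEGF, angiopoietin and endoglin pathway, barrier and lymphatic endothelium, mural cells, fibroblasts, leukocytes, platelets, red blood cells, other hormone cells and melanotrophs) were chosen with earlier results of these data known. Beside the 10 genes, the rule for named genes takes pathway genes that pass, up to 4 passing genes with the largest changes of each other list, the 5 nearest in pattern, Rb1 and GFP. Promoter sequences are from RefSeq. Figures were drawn with matplotlib 3.10.9.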

Additional observations from a re-analysis of the deposited data

Results flagged for a closer look

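In 1 of the 30 sets of 4 or 5 mice tested for the 10 genes, a single mouse stood far from the others of its group: Plvap was at 136.5 FPM in 12w-res replicate 1, a male mouse, beside 69.5 to 82.9 FPM in the other 4. Chance marks about 1 in 20 such groups.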

How the results depend on the processing

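Of 1256 values of the 10 genes under alternatives, 1161 kept direction and side of the threshold. Depth limits the short-term values, which rest on 5 to 695 reads, and the cause of each change below was not tested. With totals of recovered reads, 12w+dox against 6w+dox had 3 members passing, 1 called and a median of -0.65, 12w-res against 12w+dox 6 passing, 0 called and a median of 0.60, 12w-res against 6w+dox 1 passing and a median of 0.00832, and 1d -dox against 16w +dox 0 passing and 0 called. The medians of all genes tested in the long-term fits with totals were 0.29, -0.61 and -0.33.

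At 12w+dox against 6w+dox, females only gave 3 called. DESeq2 gave 3 called and 4 passing at 1 day and 7 called, 7 passing and a median of -1.33 at 5 days, where edgeR also gave -1.33. A pseudocount of 1 gave 0 called at 1 day, and fits of only the 2 groups compared gave 0 called and 0 passing at 1 and at 5 days. Same-numbered mice did not deviate together (correlations -0.21 to 0.24), so the numbers do not pair them. A fit with a replicate block gave 0 passing at 12w-res against 6w+dox, 0 called and 0 passing at 1 day, and 1 called and 1 passing at 5 days.

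Signs changed at 12w-res against 6w+dox with totals for Emcn (-0.14), Tek (-0.25), Tie1 (-0.13) and Eng (-0.0178), and for Tek with sex as a covariate (-0.0804) and in females only (-0.19). They changed at 3 days for Kdr with edgeR (-0.0109) and DESeq2 (-0.0204) and for Flt1 with totals (0.0534), and at 5d -dox against 1d -dox for Kdr with totals (-0.0404) and Tie1 with the replicate block (-0.0420).

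Leaving out 1 mouse gave 2 to 5 called at 12w+dox against 6w+dox, 6 to 10 called at 12w-res against 12w+dox, 0 to 1 called and 1 to 3 passing at 12w-res against 6w+dox, 0 to 1 called and 0 to 1 passing at 1 day, and 0 to 3 called and 0 to 3 passing at 5 days. It turned signs for Tek at 12w-res against 6w+dox (-0.11 to 0.17). At 3 days it did so for Cdh5 (-0.0822 to 0.22), Eng (-0.0861 to 0.19), Flt1 (-0.20 to 0.0749), Kdr (-0.19 to 0.53) and Plvap (-0.00518 to 0.60), and at 5d -dox against 1d -dox for Cdh5 (-0.25 to 0.0657), Eng (-0.51 to 0.00192), Kdr (-0.0739 to 0.14), Pecam1 (-0.42 to 0.0110) and Tie1 (-0.0554 to 0.22).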
